A study of Mus musculus with 8 samples.

Results

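The genes described here are the glucocorticoid receptor and 7 genes of its response, 8 of the 53801 genes in the deposited count table: Nr3c1, Hsd11b1, Fkbp5, Tsc22d3, Zbtb16, Sgk1, Klf9 and Txnip. They were chosen by symbol, and all 8 passed the filter on low counts. Fkbp5 and Txnip were selected on their large differences between the numbered pairs of libraries, so those differences are given below as a description, with no test. RNA was sequenced from stromal cells negative for CD45 (leukocytes) and CD31 (endothelium), sorted by flow cytometry from ulcers of the small intestine of LTβR-YFP reporter mice treated with indomethacin, a non-steroidal anti-inflammatory drug that injures the gut. The 4 YFP-positive and 4 YFP-negative libraries carry the numbers 1 to 4 in each group. Both groups share the reporter strain and the drug, and no untreated animals enter the comparison. The sources used here give neither the age of the mice, nor whether a library is 1 mouse or a pool, nor how YFP expression relates to that of the lymphotoxin β receptor.

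Glucocorticoids are adrenal steroids that cross the cell membrane and bind the glucocorticoid receptor, which is held in the cytoplasm by heat shock protein chaperones. The bound receptor enters the nucleus, binds palindromic response elements and raises transcription of genes such as Fkbp5, Tsc22d3 and Per1, and it also restrains inflammatory genes. In fibroblasts and other stromal cells the enzyme encoded by Hsd11b1 can regenerate active steroid from its inert form. Gut stroma answers glucocorticoids by making fewer cytokines and prostaglandins.

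Total counts per library ranged from 12481608 to 29385718, and the filter left 15945 genes for testing. Levels are CPM, each count divided by the library total, with trimmed mean (TMM) factors, and scaled to a common size. The fibroblast markers Pdgfra and Col1a1 stood at 1310 to 2025 and 4299 to 11349 CPM, against 0.877 to 12.2 CPM for Ptprc, which encodes CD45, and 11.1 to 46.9 CPM for Pecam1, which encodes CD31. The number 2 libraries stood apart: on the first principal component, with 35.5% of the variance, they lay at 92.5 and 78.7 and the other 6 between -46.2 and -12.4. They were also the smallest library of each group, and their summed level of 9 fibroblast markers was the lowest of each group, with pair means of 42837, 26416, 36357 and 45575 CPM for numbers 1 to 4. The part of depth and of cell composition in the differences between numbers was not tested. In bulk RNA, fewer cells of a type and less RNA per cell cannot be told apart.

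Transcript of the receptor itself was present in every library, within 113 to 170 CPM. Nr3c1 (ENSMUSG00000024431, GRCm38 chromosome 18, 39410545 to 39519421, minus strand) encodes the glucocorticoid receptor. It stood at 150, 113, 135 and 151 CPM in YFP-negative libraries 1 to 4 and at 141, 137, 149 and 170 CPM in YFP-positive libraries 1 to 4. The groups overlapped, with means of 137 ± 17.9 and 149 ± 14.7 CPM (SD, n = 4 each). Per base of transcript its mean was the lowest of the 8 genes, at 34.2 ± 5.41 TPM (SD over 8 libraries). TPM is a level per transcript length, computed here from the counts and the exon lengths of the GENCODE M21 annotation. Nr3c1 did not differ from Sgk1, Tsc22d3 or Fkbp5 beyond the SDs. Its relative Nr3c2, the mineralocorticoid receptor, was lower on the same scale, at 5.60 ± 1.51 TPM, while Nr3c1 ranged from 25.5 to 42.2 TPM over the libraries.

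Hsd11b1 (ENSMUSG00000016194, chromosome 1, 193221634 to 193264075, minus strand) encodes 11β-hydroxysteroid dehydrogenase type 1, which converts inert 11-keto steroid to active hormone. It stood at 292, 420, 361 and 314 CPM in the YFP-negative set and 374, 417, 372 and 323 CPM in the YFP-positive set, so the range was narrow and the groups overlapped. H6pd supplies the enzyme's cofactor in the endoplasmic reticulum and was abundant, at 184 ± 57.5 TPM against 155 ± 26.4 TPM for Hsd11b1, a difference within their SDs. Hsd11b2, which carries out the opposite reaction and inactivates the hormone, stood at 1.98 ± 1.25 TPM. Its 325 counts over 8 libraries split into 4.23, 2.90, 2.23 and 2.78 CPM in the YFP-negative set and 1.21, 0.760, 1.16 and 0.752 CPM in YFP-positive libraries. Every YFP-positive library was below every YFP-negative one, which held in either direction for 1.55% of all genes tested. The log2 difference of -1.63 did not pass the test blocked on replicate number (edgeR adjusted p = 0.151; DESeq2 with the block gave 0.0346).

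The response genes fall into several kinds of protein. Fkbp5 encodes FKBP51, a co-chaperone that lowers the receptor's affinity for hormone and so closes a feedback loop. Tsc22d3 encodes GILZ, a leucine zipper protein that restrains NF-κB and AP-1 signalling. Zbtb16 encodes the zinc finger repressor PLZF, Klf9 a Krüppel-like transcription factor, and Sgk1 a serum- and glucocorticoid-regulated kinase that acts on ion transport and survival. Txnip encodes thioredoxin-interacting protein, an α-arrestin that limits glucose uptake and thioredoxin activity and answers glucose as well as steroid.

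The promoters of 3 of these genes are shown because the data below set their transcripts apart: Sgk1 is the member that differed between the sorted groups, and Fkbp5 and Tsc22d3 had the most similar profiles of any pair of members. Sequences are from RefSeq (GRCm38.p6), 5′ to 3′ on the gene's strand, and cover the 250 bases upstream of a start site; for Tsc22d3 the stretch ends at the first base that GENCODE M21 annotates as an exon. In Sgk1, on chr10:21993640-21993889, plus strand, capitals mark the palindromic response element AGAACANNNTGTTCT. In Fkbp5, on chr17:28486150-28486399, minus strand, they mark an E-box, CACGTG, and 2 CCAAT boxes, one of them on the opposite strand. In Tsc22d3, on chrX:140600660-140600772, minus strand, they mark the receptor half-site TGTTCT.
Sgk1: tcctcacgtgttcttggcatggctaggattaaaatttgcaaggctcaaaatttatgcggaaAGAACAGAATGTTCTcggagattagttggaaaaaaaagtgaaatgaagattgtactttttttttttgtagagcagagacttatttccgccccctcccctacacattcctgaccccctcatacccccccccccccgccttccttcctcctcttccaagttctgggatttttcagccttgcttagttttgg
Fkbp5: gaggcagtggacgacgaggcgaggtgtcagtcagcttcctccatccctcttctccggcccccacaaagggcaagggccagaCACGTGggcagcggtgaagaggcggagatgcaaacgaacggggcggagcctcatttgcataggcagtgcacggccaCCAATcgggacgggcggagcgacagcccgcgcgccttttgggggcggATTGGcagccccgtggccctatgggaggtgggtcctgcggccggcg
Tsc22d3: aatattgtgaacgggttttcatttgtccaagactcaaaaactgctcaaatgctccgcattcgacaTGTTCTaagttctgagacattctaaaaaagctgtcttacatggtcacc

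Motifs were searched on both strands of all 32851 promoter windows in the table, each from 250 bases before to 50 after a start site. The full element, which holds 2 half-sites, was in 3 windows, 0.00913% of them, those of Acnat2, Gm35041 and 1 of the 6 Sgk1 windows. There it began 189 bases upstream of the start site. The same window held a further half-site 242 bases and an E-box 246 bases upstream, which overlap and are left in lower case above. The half-site alone is common, in 19% of windows, and it was in 1 of the 3 Tsc22d3 windows, the one shown, 185 bases upstream of the start site. The Fkbp5 window held no half-site; its E-box lay 169 bases upstream, and an E-box is in 7.15% of windows. CCAAT boxes, in 37.4% of windows, were found for Fkbp5, Klf9, Txnip, Hsd11b1 and 2 of the 6 Sgk1 windows, not the one shown. Entries were present for 6 of the 8 genes; Zbtb16 and Nr3c1 had none. A match here is a run of letters in a short window, not a bound site, and its absence says nothing of more distant elements.

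Expression of the response genes differed widely between libraries and little between the sorted groups. Fkbp5 (ENSMUSG00000024222, chromosome 17, 28399094 to 28517527, minus strand) stood at 74.0, 376, 278 and 147 CPM in YFP-negative libraries 1 to 4 and at 70.6, 344, 275 and 118 CPM in YFP-positive libraries 1 to 4. Libraries of number 2 were the highest and those of number 1 the lowest in both groups. Tsc22d3 (ENSMUSG00000031431, chromosome X, 140539528 to 140600659, minus strand) stood at 36.7, 170, 156 and 66.0 CPM and at 33.8, 138, 139 and 70.5 CPM in the same order. Numbers 2 and 3 were high and numbers 1 and 4 low on both sides of the sort. Txnip (ENSMUSG00000038393, chromosome 3, 96557957 to 96561883, plus strand) stood at 375, 2062, 873 and 575 CPM in the YFP-negative set and 389, 2184, 879 and 558 CPM in the YFP-positive set. Its exons overlap those of Gm15441 on the opposite strand, which held 2027 counts over all libraries against 147205 for Txnip, and whether reads were counted by strand is not stated in those sources.

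Zbtb16 (ENSMUSG00000066687, chromosome 9, 48654297 to 48836222, minus strand) followed another order. It stood at 252, 543, 377 and 483 CPM in the YFP-negative set and 203, 552, 323 and 447 CPM in the YFP-positive set, with number 4 above number 3. Klf9 (ENSMUSG00000033863, chromosome 19, 23141226 to 23168134, plus strand) stood at 185, 279, 171 and 167 CPM and at 183, 295, 165 and 170 CPM, so that number 2 was high and the other 3 were close together. Sgk1 (ENSMUSG00000019970, chromosome 10, 21882184 to 21999903, plus strand) stood at 141, 209, 125 and 83.2 CPM in the YFP-negative set and 121, 192, 94.3 and 51.0 CPM in YFP-positive libraries. Its lowest value was in number 4, where Fkbp5, Tsc22d3, Zbtb16 and Txnip were above their number 1 levels.

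**Figure D1:**
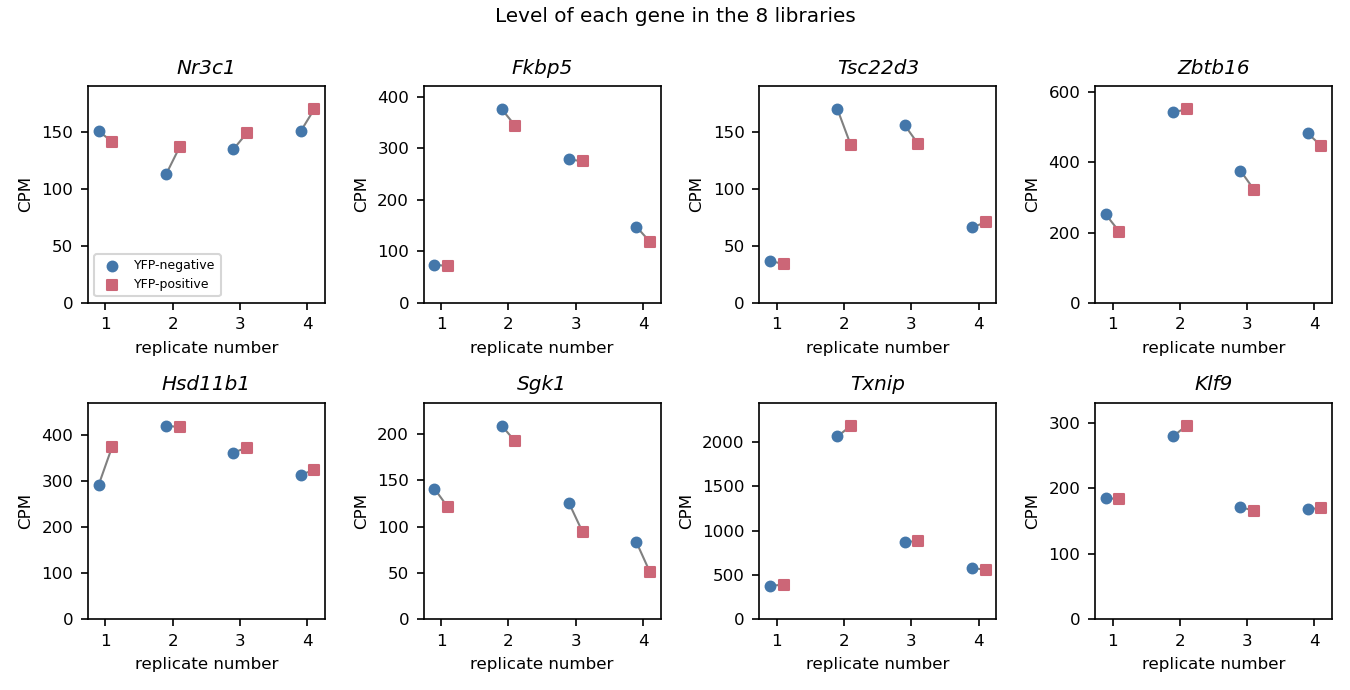
CPM of the 8 genes (1 panel each) by replicate number, with a circle for each YFP-negative and a square for each YFP-positive library. The 2 libraries of a number lie close together in most panels, while Fkbp5, Tsc22d3 and Txnip differ several-fold between numbers and Nr3c1 and Hsd11b1 do not.

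Per base of transcript the order of the 8 genes was Txnip (577 ± 414 TPM), Hsd11b1 (155 ± 26.4), Zbtb16 (136 ± 40.6), Klf9 (76.5 ± 19.5), Sgk1 (47.5 ± 19.6), Tsc22d3 (43.4 ± 25.2), Fkbp5 (41.2 ± 24.7) and Nr3c1 (34.2 ± 5.41), as mean TPM with its SD over 8 libraries. Hsd11b1 and Zbtb16 did not differ beyond their SDs, nor did Sgk1, Tsc22d3, Fkbp5 and Nr3c1 among themselves.

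The first question of the design is whether YFP-positive stroma expresses these genes at another level than YFP-negative stroma. None of the 8 genes was called when the 2 groups were compared without regard to replicate number (edgeR quasi-likelihood test, adjusted p at or under 0.05). Nor was any other gene: 0% of the 15945 genes tested were called, with 156 higher and 169 lower at an unadjusted p of 0.05, while limma voom called 0 and DESeq2 called 2, both lower. In this fit the log2 difference of YFP-positive from YFP-negative cells was 0.12 for Nr3c1 (95% interval -0.22 to 0.47) and 0.10 for Hsd11b1 (-0.27 to 0.47). For the genes that vary most between numbers the intervals were wide, from -1.33 to 1.09 for Fkbp5 and from -1.27 to 1.36 for Txnip. The groups overlapped for all 8 genes.

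With the replicate number as a block, Sgk1 fell in YFP-positive cells and the other 7 genes were not called. The mean of Sgk1 was 140 ± 52.4 CPM in the YFP-negative set and 115 ± 59.2 CPM in YFP-positive libraries (SD, n = 4 each). Within pairs 1 to 4 the log2 difference was -0.22, -0.12, -0.41 and -0.71, lower in 4 of 4. The blocked log2 fold change was -0.36 (SE 0.0881, edgeR adjusted p = 0.0439), against -0.29 (SE 0.378) without the block. In the authors' deposited table the log2 fold change of Sgk1 was -0.368 with an adjusted p of 0.0118. By DESeq2 on the same counts it was -0.370 with the block and -0.297 without. The sources used here do not give the settings of the authors' fit. The blocked fit called 1.59% of all genes tested lower and 0.696% higher, beside 1 of 8 and 0 of 8 here. Of the 3606 genes with a mean of at least 50 CPM, as all 8 have, it called 177 lower and 70 higher. With so few members nothing was read from these counts. The call of Sgk1 did not hold without number 1 (adjusted p = 0.0683), without number 3 (0.209), without number 4 (0.281) or with library sizes alone as scaling (0.119), and it held without number 2 (0.0138) and by DESeq2 with the block (0.00937); the direction was the same in all of these.

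For the 7 genes that were not called, the blocked intervals bound the size of a difference. The blocked log2 interval was -0.10 to 0.15 for Txnip and -0.13 to 0.14 for Klf9, the narrowest pair of intervals. It was -0.28 to 0.01 for Fkbp5, -0.29 to 0.05 for Tsc22d3 and -0.30 to -0.01 for Zbtb16 (edgeR adjusted p = 0.385). Nr3c1 and Hsd11b1 had intervals on the other side, -0.03 to 0.28 and -0.04 to 0.26. Fkbp5 was lower in YFP-positive cells in 4 of 4 pairs, by log2 differences of -0.07, -0.13, -0.02 and -0.32, without passing the test (adjusted p = 0.524). Thus 2 of 8 genes, Fkbp5 and Sgk1, were lower in every pair and 0 of 8 higher in every pair, beside 10.2% and 8.86% of all genes tested. Of the 3606 genes with a mean of at least 50 CPM, 627 were lower and 398 higher in every pair.

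**Figure D2:**
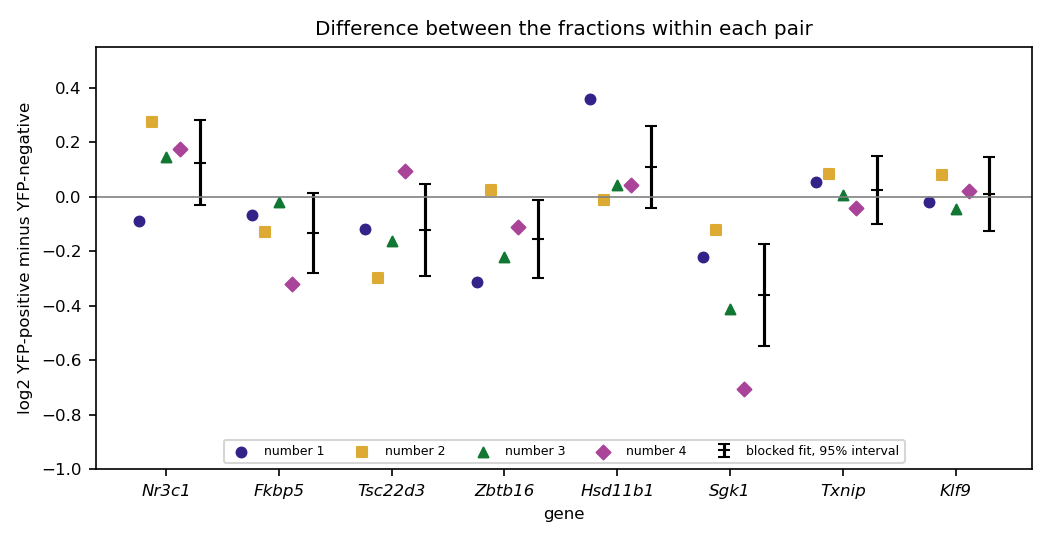
Log2 difference of the YFP-positive from the YFP-negative library of the same number, 1 point per pair and gene. All 4 points of Sgk1 and of Fkbp5 lie below 0, and the points of Txnip and Klf9 lie closest to 0, with a largest within-pair difference of 1.06-fold for each.

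Summed levels of immediate early genes and of cell type markers also differed between the 2 libraries of each pair. The summed level of 15 immediate early genes, which respond to stimulation and to tissue handling within minutes, was lower in YFP-positive cells in 4 of 4 pairs. It stood at 16788, 19663, 11207 and 9812 CPM in the YFP-negative set and 14903, 16104, 9993 and 5661 CPM in the YFP-positive set. The pair means of that sum, 15845, 17884, 10600 and 7736 CPM, ranked the numbers 2, 1, 3, 4, the same order as the pair means of Sgk1, 131, 201, 110 and 67.1 CPM. All 15 of these genes were detected. The 9 fibroblast markers summed to 28678 to 55096 CPM in the YFP-negative set and 24153 to 37794 CPM in the YFP-positive set, lower in 4 of 4 pairs. In the blocked fit 6 of 9 fell, among them Col3a1, Col1a1 and Col1a2, which make up most of the sum. Pdgfra, Pdgfrb and Col6a1 did not fall (blocked log2 differences of -0.004, 0.10 and 0.09, not called). The sum of 8 smooth muscle markers, of which 3 rose, was higher in 4 of 4 pairs (453 to 798 against 544 to 1174 CPM), and that of 7 enteric glia markers, of which 1 fell, was lower in 4 of 4 (7.79 to 48.5 against 4.13 to 4.95 CPM). The sum of 6 pericyte markers was lower in 4 of 4 pairs (1359 to 1750 against 1196 to 1488 CPM), but its members went different ways: Rgs5, which makes up most of the sum, fell (blocked log2 fold change -0.36), Cspg4 rose (0.43), and 3 of the 5 tested were higher in 4 of 4 pairs. The sum of 4 markers of interstitial cells of Cajal was higher in 4 of 4 pairs (29.1 to 41.8 against 33.8 to 56.0 CPM); most of it is Etv1, no member was called, and the median blocked log2 difference was -0.13. Over both groups, 10 leukocyte markers summed to 11.0 to 55.9 CPM per library and 10 epithelial markers to 0.800 to 131 CPM. The 9 endothelial markers summed to 39.5 to 197 CPM and 6 mesothelial markers to 1.56 to 29.5 CPM. The epithelial, endothelial and mesothelial sums were highest in YFP-positive library 4, of the pair with the largest Sgk1 difference. Krt19 is on both the epithelial and the mesothelial list. It made up most of the mesothelial sum in number 4, with pair means of 17.2 and 19.6 CPM. The mesothelial markers Wt1 and Upk3b were below their means in YFP-positive library 4, by log2 differences of -3.71 and -1.34. The leukocyte sum was highest in YFP-positive library 2. No gene of these lists was at 0 in all 8 libraries. Mitochondrial genes took 7.71% to 12.4% of counts, a lower share in the YFP-positive library of every pair. Their part in the Sgk1 difference was not tested.

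**Figure D3:**
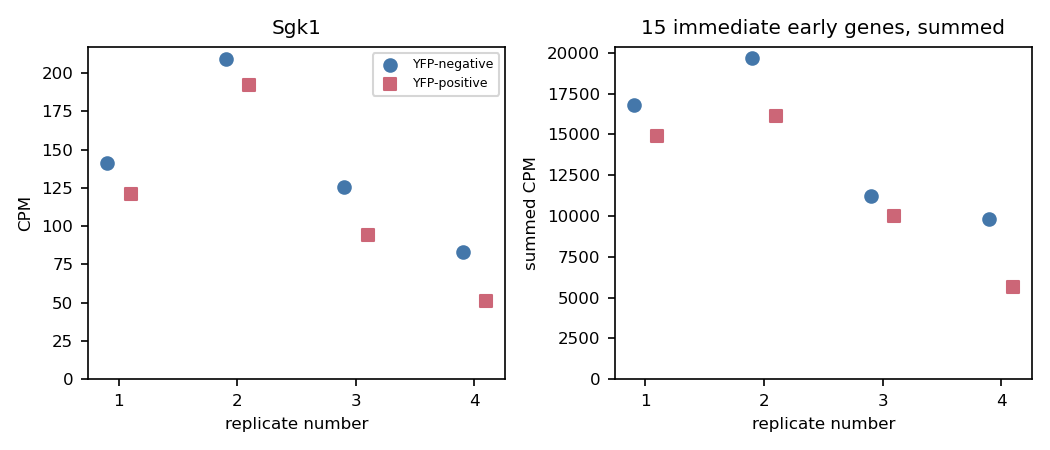
CPM of Sgk1 and summed CPM of 15 immediate early genes by replicate number, circles for YFP-negative and squares for YFP-positive libraries. Both quantities are lower in the YFP-positive library of each pair and rank the numbers 2, 1, 3, 4 by pair mean.

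The second question is how far the genes differ between the numbered pairs, whatever the sort. By pair mean, Txnip spanned 382 to 2123 CPM between numbers 1 and 2 (5.55-fold) and Fkbp5 72.3 to 360 CPM (4.97-fold), which are the differences that had them chosen. The largest difference inside any pair was 1.06-fold for Txnip and 1.25-fold for Fkbp5. Tsc22d3, which was not picked for this, spanned 35.2 to 154 CPM (4.34-fold). Sgk1 spanned 67.1 to 201 CPM (3.08-fold), Zbtb16 227 to 547 CPM (2.42-fold) and Klf9 168 to 287 CPM (1.71-fold). Hsd11b1 (1.31-fold) and Nr3c1 (1.29-fold) spanned the least, and Nr3c1, alone of the 8, was lowest in number 2 and highest in number 4.

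All 8 genes have a mean of at least 50 CPM, as have 3606 of the genes tested, and those abundant genes are the measure for these spans. A smaller span than that of Tsc22d3 was found for 98.5% of them, than that of Sgk1 for 95.4%, of Zbtb16 for 89.9% and of Klf9 for 65.9%. The spans of Hsd11b1 and Nr3c1 were ordinary, above those of 27.1% and 23.1% of abundant genes. Of the 6 genes not picked for this difference, 3 spanned at least 2-fold, Tsc22d3, Sgk1 and Zbtb16; with Fkbp5 and Txnip it is 5 of 8. A span of that size was found for 44.8% of all genes tested and for 19.7% of the abundant ones.

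**Figure D4:**
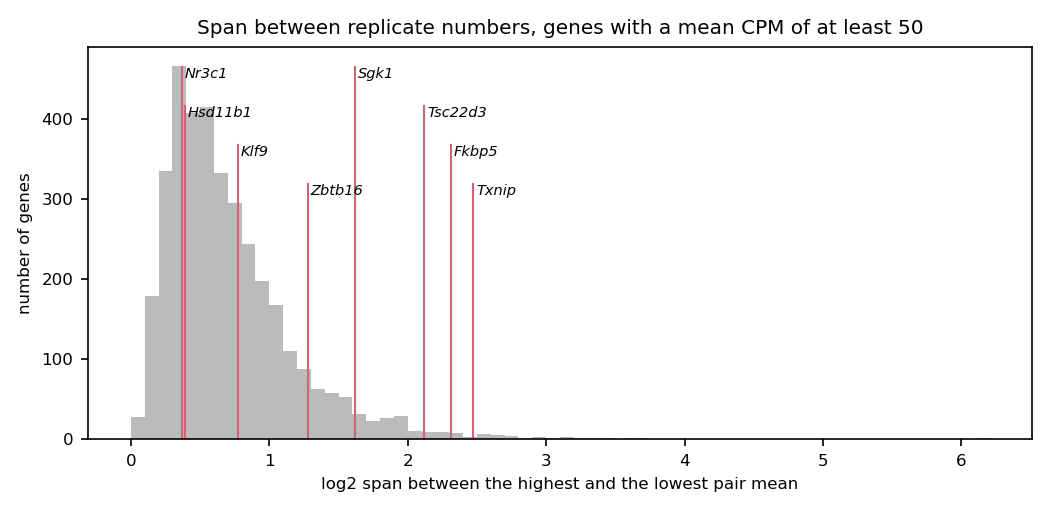
Number of genes with a mean CPM of at least 50 (vertical axis) by the log2 span between their highest and lowest pair mean (horizontal axis, bins of 0.1), with a line for each of the 8 genes. Tsc22d3, Fkbp5 and Txnip lie in the upper tail, beyond a log2 span of 2, and Nr3c1 and Hsd11b1 near the peak of the distribution.

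The difference between numbers was tested in the 6 genes not picked for it, against the spread within pairs (edgeR quasi-likelihood F-test of the replicate numbers, group in the model). It passed for Tsc22d3 (adjusted p = 6.7e-09), Zbtb16 (3.8e-07), Sgk1 (8.8e-07), Klf9 (8.7e-06) and Hsd11b1 (0.0173), and did not for Nr3c1 (0.0624). These 5 of 6 stand against 39.3% of all genes tested and 74.2% of the abundant genes, so the count is near the background of genes of like abundance and is no result about these genes. All 5 were called with their highest pair mean in number 2, as were 14.9% of all genes and 33.9% of the abundant ones. The number 2 libraries decided several of these values. Without them Klf9 (adjusted p = 0.515) and Hsd11b1 (0.291) were no longer called, and the log2 span fell from 2.47 to 1.20 for Txnip and from 1.62 to 1.00 for Sgk1. The number 1 libraries, and for Sgk1 those of number 4, mattered as much: the log2 span became 1.16 in place of 2.12 for Tsc22d3, 0.64 in place of 1.28 for Zbtb16 and 1.43 in place of 2.31 for Fkbp5 without number 1, and 0.88 for Sgk1 without number 4. Nr3c1 was called without number 1 (0.0172), with library sizes alone (0.0403) and with no filter on low counts (0.0155).

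The 8 genes did not share 1 profile. Likeness was measured as the root mean square difference, over the 8 libraries, between log2 CPM values centred on each gene's mean. Fkbp5 and Tsc22d3 were the closest of the 28 pairs of members, at 0.171, followed by Hsd11b1 and Klf9 at 0.231. The measure also places genes that vary little near each other, whatever their order. Nr3c1 and Hsd11b1 came next at 0.314, though number 2 was lowest for Nr3c1 and highest for Hsd11b1. Fkbp5 and Txnip, both highest in number 2 and lowest in number 1, were 0.354 apart, since Txnip had a sharper peak in number 2. Nr3c1 and Txnip were the farthest apart, at 1.03.

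Among 10073 candidate genes the profile nearest to Fkbp5 was that of Tsc22d3. Next came Bmf, a pro-apoptotic BH3-only protein, at 0.178, with pair means of 8.13, 46.7, 31.9 and 15.5 CPM for numbers 1 to 4. Peli2, an E3 ubiquitin ligase of Toll-like receptor signalling, was at 0.232, with 45.4, 195, 136 and 65.9 CPM. Galnt17 (0.285) and Aspg (0.288) followed. All 5 were highest in number 2 and lowest in number 1, with number 3 between number 2 and number 4.

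The profile nearest to Txnip was that of Il15ra, the receptor chain that presents interleukin 15, at 0.0698. Its pair means were 17.9, 88.4, 39.2 and 25.0 CPM for numbers 1 to 4, beside 382, 2123, 876 and 567 CPM for Txnip. Itga1, a collagen-binding integrin chain, was at 0.203 and spanned 141 to 559 CPM. Sesn1 (0.235), a sestrin of the stress response, and Zfp777 (0.287), a zinc finger gene, followed, and Peli2, the only gene near both, was at 0.293. These likenesses are a description over 8 libraries in 4 pairs, in which the number 2 libraries, high for all of these genes, are also the shallowest.

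Other genes of the pathway were read from lists. Of 14 chaperones of the receptor 0 rose and 1 fell in the blocked fit, with a median unblocked log2 difference of -0.01 beside 0.00 for all genes tested. The one that fell was Dnajb1, an Hsp40 that hands clients to Hsp70, from 204 ± 48.5 to 147 ± 38.3 CPM (SD, n = 4 each; blocked log2 fold change -0.48, edgeR adjusted p = 0.0291, not called without the block). That call did not hold without number 1 (0.164), number 2 (0.0788) or number 4 (0.0695). Fkbp4 encodes FKBP52, the co-chaperone that exchanges with FKBP51 on the receptor complex, and stood at 44.1 and 46.9 CPM in the 2 groups. Its pair means were 55.2, 18.9, 38.5 and 69.3 CPM for numbers 1 to 4, a 3.67-fold span, so that number 2, the highest for Fkbp5, was the lowest for Fkbp4. Of 14 FK506-binding protein genes that passed the filter 0 were called between the sorted groups. Leaving Fkbp5 aside, 9 of 13 were called between numbers, 8 of them with the lowest pair mean in number 2; the exception was Fkbp15. Of all genes tested 39.3% were called between numbers, and 2687 of 15945 were called with their lowest pair mean in number 2. Fkbp9, named for its CPM, stood at 211 and 194 CPM in YFP-negative and YFP-positive cells and was also lowest in number 2.

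Of 12 receptor coregulators 0 were called between the sorted groups, with a median log2 difference of 0.03. The acetyltransferase Crebbp, named for its CPM, stood at 325 and 331 CPM in YFP-negative and YFP-positive cells. Of 5 related steroid receptors 3 passed the filter and 0 were called; Nr3c2 stood at 19.1 ± 3.88 and 20.7 ± 7.09 CPM (SD, n = 4 each). Of 15 genes of steroid synthesis, metabolism and export 8 passed the filter. The genes of corticosteroid synthesis Cyp11a1, Hsd3b1, Cyp17a1, Cyp21a1 and Cyp11b1 did not, with 13 counts over 8 libraries for Cyp11a1 and 7 for Cyp11b1. Of the 8, Abcb1a rose, an efflux pump that exports steroids among many substrates, from 19.6 ± 4.55 to 30.3 ± 11.3 CPM (blocked log2 fold change 0.58, edgeR adjusted p = 0.0459). That call did not hold without number 1 (0.23), number 3 (0.111) or number 4 (0.327).

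A list of 32 further genes that glucocorticoids are known to induce had 31 that passed the filter; Crispld2 held 0 counts in every library. In the blocked fit 0 rose and 3 fell, Bcl6, Slc10a6 and Dusp1, beside 0.696% and 1.59% of all genes tested. Of the 3606 abundant genes, which include all 3 that fell, 70 rose and 177 fell. Bcl6, a transcriptional repressor, went from 109 ± 31.1 to 84.2 ± 36.6 CPM (blocked log2 fold change -0.43, edgeR adjusted p = 0.0216). Slc10a6, a transporter of sulphated steroids, went from 82.8 ± 15.9 to 63.0 ± 11.4 CPM (-0.39, 0.0406). Dusp1, a phosphatase of MAP kinases and also on the immediate early list, went from 746 ± 184 to 609 ± 213 CPM (-0.33, 0.0475). Each call rested on some of the pairs. The adjusted p of Bcl6 was 0.13 without number 3 and 0.151 without number 4. That of Slc10a6 was 0.189, 0.0943 and 0.219 without numbers 1, 2 and 4, and that of Dusp1 0.0877, 0.137 and 0.215 without numbers 1, 3 and 4. The median unblocked log2 difference of the list was -0.20, beside 0.00 for all genes tested. In 4 of 4 pairs 15 of 31 genes were lower and 1 higher, beside 10.2% and 8.86% of all genes tested. Of the 3606 abundant genes 627 were lower and 398 higher in 4 of 4 pairs. The 15 immediate early genes, which include Dusp1, had 11 lower and 0 higher in 4 of 4 pairs. Per1, a clock gene with a strong response to the hormone, stood at 266 ± 19.8 and 274 ± 46.5 CPM and spanned only 1.24-fold between numbers.

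The numbers of the pairs ordered this list otherwise than they ordered Fkbp5 and Tsc22d3. Of the 31 genes 20 (64.5%) were highest in number 2, beside 32.7% of all genes tested and 42.9% of the abundant ones. But 17 (54.8%) were lowest in number 4, the number lowest for Sgk1. Another 6 (19.4%) were lowest in number 1, the number lowest for Fkbp5, Tsc22d3, Zbtb16 and Txnip. Among abundant genes the shares were 32.6% and 17.2%. The 15 immediate early genes had 12 (80%) lowest in number 4 and 0 in number 1. Only 5 of 31 were both highest in number 2 and lowest in number 1: Pdk4, Glul, Foxo3, Mertk and Slc10a6, named after their values were seen. Glul, glutamine synthetase, had pair means of 175, 569, 371 and 188 CPM, and Pdk4, a kinase that shuts pyruvate out of the mitochondrial oxidation pathway, 19.1, 71.1, 28.7 and 20.7 CPM. The metallothionein genes Mt1 and Mt2, also named after their values were seen, were highest in number 2 and lowest in number 4, with spans of 7.51-fold and 10.4-fold. The median span of the list was 2.41-fold, beside 1.87-fold for all genes tested and 1.51-fold for the abundant ones.

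**Figure D5:**
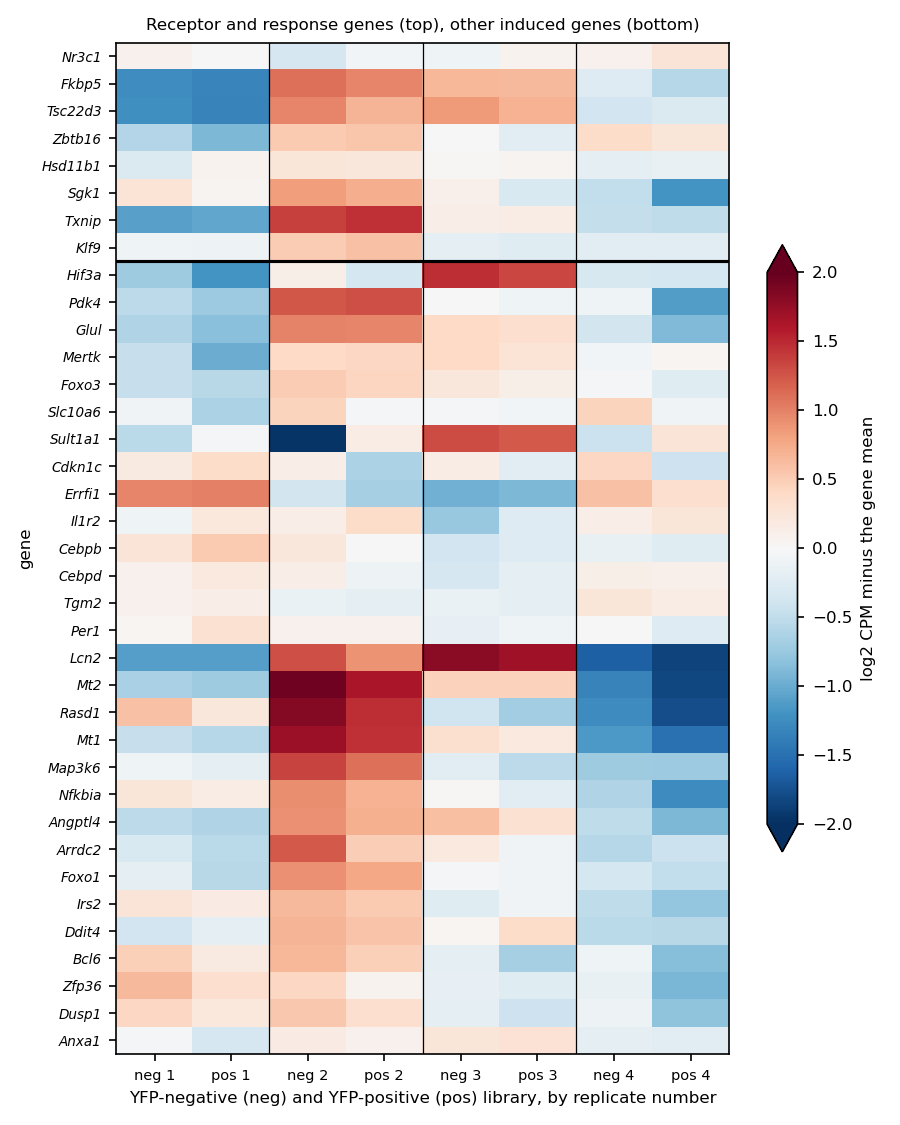
Heat map of log2 CPM minus each gene's mean (colour, clipped at 2 in either direction) in the 8 libraries (columns), with the 8 genes on top and the other glucocorticoid-induced genes with a mean CPM of at least 5 below. Number 2 columns are high in most rows, while the low columns are those of number 1 for Fkbp5, Tsc22d3 and Txnip and those of number 4 for Sgk1 and many of the other induced genes.

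Genes that glucocorticoids repress formed a second list, of 19 cytokine, chemokine, prostaglandin and matrix protease genes, all of which passed the filter. In the blocked fit 0 rose and 2 fell in YFP-positive cells, beside 0.696% and 1.59% of all genes tested. Of the 3606 abundant genes 70 rose and 177 fell. Il6, a cytokine of the acute phase, went from 599 ± 258 to 426 ± 221 CPM (SD, n = 4 each; blocked log2 fold change -0.54, edgeR adjusted p = 0.0216). Ccl7, a monocyte chemokine, went from 61.8 ± 26.4 to 48.8 ± 25.0 CPM (-0.37, 0.0422). The call of Il6 did not hold without number 1 (0.104) or number 3 (0.0555), and that of Ccl7 without any 1 of the numbers (0.0872 to 0.204). The median unblocked log2 difference was 0.00, as for all genes tested. With the block the median was -0.08, beside 0.00 for all genes tested. In 4 of 4 pairs 5 of 19 genes were lower and 1 higher, beside 10.2% and 8.86% of all genes tested. The abundant genes had 627 lower and 398 higher in 4 of 4 pairs. Between numbers 14 of 19 (73.7%) were highest in number 1, where Fkbp5, Tsc22d3, Zbtb16 and Txnip were lowest, beside 20.8% of all genes tested and 23.3% of the abundant ones. None of the 19 was lowest in number 1, and 11 (57.9%) were lowest in number 4, as were Sgk1 and 17 of the 31 induced genes. Of the 19, 18 spanned at least 2-fold, beside 44.8% of all genes tested and 19.7% of the abundant ones. The relation between the orders of the 2 kinds of genes was not tested.

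Among relatives of the response genes only Sgk1 itself was called between the sorted groups. Of 13 Krüppel-like factor genes 0 were called; Klf4, named for its CPM, stood at 342 ± 171 and 252 ± 156 CPM in YFP-negative and YFP-positive libraries (blocked log2 difference -0.55, edgeR adjusted p = 0.0767). It was called in the blocked fit by DESeq2 (adjusted p = 2.03e-05), by edgeR with library sizes alone (0.0314) and by edgeR without number 4 (0.0135). Between numbers 8 of the 13, Klf9 among them, were highest in number 2, beside 32.7% of all genes tested and 42.9% of the abundant ones. Klf15, named after its values were seen, had pair means of 11.4, 45.5, 28.2 and 22.3 CPM, a 4.02-fold span against 1.71-fold for Klf9. Of the 4 TSC22 domain genes 0 were called; Tsc22d1 stood at 185 and 191 CPM and Tsc22d2 at 158 and 146 CPM, and Tsc22d3 had the widest span between numbers, 4.34-fold. Of 13 thioredoxin and α-arrestin genes 0 were called; Arrdc3, named for its CPM, stood at 301 and 288 CPM and spanned 1.47-fold, against 5.55-fold for Txnip. Of 6 genes of SGK kinases and their substrates that passed the filter, Sgk1 was the only one called.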

How the data were processed

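Stromal RNA of 8 libraries was made into stranded total RNA libraries with a low-input Takara SMARTer kit, per the labels' protocols. The submitters' processing notes name STAR 2.7.3a, cutadapt 3.4, DESeq2, featureCounts 2.0.1 and GRCm38, with settings and annotation not given in the sources used here. One deposited table of the whole series holds raw counts, normalised values (a score: counts divided by size factors and rounded), a fold change (ratio), log2 fold changes and p-values of the authors, per the file headers.

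Tests ran on the counts of all genes with edgeR 4.0.16 (R 4.3.3): filterByExpr by group, TMM factors, robust quasi-likelihood fit on group, two-sided, Benjamini-Hochberg adjustment over 15945 genes, called at 0.05 or below. Intervals are 95%. A second model added the replicate number as a block and tested the numbers; Fkbp5 and Txnip were left out of that last test. limma 3.58.1 and DESeq2 1.42.0 served as alternatives, with other scaling, filters and left-out libraries. The scripts were tested on simulated data. GENCODE M21, which lists 53706 of the identifiers in the table, gave GRCm38 positions and exon lengths.

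The members and lists were chosen with earlier results of these data known. The naming rule took all members, Nr3c2, Hsd11b2, H6pd, Fkbp4, Per1 and Dusp1, and from each list up to 3 called genes in each direction with the lowest blocked adjusted p, or else the 2 most abundant. For Fkbp5 and Txnip it took the 5 genes nearest in profile, with an official symbol and a mean of at least 5 CPM; log2 CPM used a prior count of 2. Some genes the rule took are not reported here.

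Whether each library is another animal, and whether an animal gave both libraries of a number, is not stated in the labels, so the p-values cover only the spread among these samples, which may be technical. Deviations from the group mean of log2 CPM correlated at 0.233, 0.487, 0.376 and 0.376 between libraries of equal number and at most at 0.0456 between others, so the numbers were treated as pairs on the strength of the data rather than the labels. All libraries within a group differed by more than sampling noise (chi-square divided by its degrees of freedom at least 50.9).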

Additional observations from a re-analysis of the deposited data

Results flagged for a closer look

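In 56 groups of 4 libraries, chance sets about 1 in 20 apart by the gap between an extreme library and its nearest neighbour, relative to the range of the group; 5 were set apart here. Klf9 was high in number 2 of both groups, at 279 CPM among the YFP-negative and 295 CPM among the YFP-positive libraries. Ccl7 was high in number 1 of both groups, at 101 CPM among the YFP-negative and 86.2 CPM among the YFP-positive libraries. Slc10a6 was low in number 1 of the YFP-positive cells, at 45.9 CPM.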

How the results depend on the processing

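The counts over all genes depended on the pairing. Without the replicate block 0 genes were called (2 lower by DESeq2). With the block 111 genes were called higher and 253 lower; 168 and 357 by DESeq2; 212 and 153 with library sizes alone. Leaving out number 1, 2, 3 or 4 in that fit gave 73 and 121, 130 and 296, 38 and 119, and 47 and 120 genes. Genes called between numbers were 6270, and 3299 to 5917 with 1 number left out, the fewest without number 2. Beside the calls given with their genes above, the block changed no call of a named gene. Leaving out 1 library at a time turned the unblocked log2 difference of some genes, none of them called: it ranged from -0.50 to 0.27 for Fkbp5, -0.45 to 0.14 for Tsc22d3, -0.35 to 0.10 for Zbtb16, -0.67 to 0.72 for Txnip, -0.21 to 0.22 for Klf9, -0.12 to 0.30 for Nr3c2, -0.32 to 0.066 for H6pd, -0.19 to 0.36 for Fkbp4, -0.059 to 0.12 for Per1, -0.15 to 0.17 for Crebbp, -0.76 to 0.0025 for Ccl7, -0.16 to 0.046 for Arrdc3, -0.0060 to 0.093 for Tsc22d1 and -0.24 to 0.0097 for Tsc22d2. With the block the sign turned for Klf9 (-0.015) and Crebbp (-0.0018) without number 2, Crebbp (-0.0054) without number 3, Nr3c2 (-0.0044) without number 4 and Per1 (-0.051) without number 1. Arrdc3 turned to 0.027 with library sizes alone, and to 0.032 with the block as well. The cause was not tested. Nr3c1, Hsd11b1 and Sgk1 kept their direction in all alternatives run. Sgk1 and the other blocked calls lie near the threshold, and 4 pairs limit the precision of each.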
